A study of Mus musculus with 2 samples.

Results

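RNA polymerase III makes transfer RNA, 5S ribosomal RNA and other short RNAs that every growing cell needs. The 9 genes described here code for subunits of this enzyme: Polr3a, Polr3b, Polr3c, Polr3d, Polr3e, Polr3f, Polr3g, Polr3gl and Polr3k. They were chosen by symbol among the 32285 genes of the count matrices, and Polr3f was set against the other 8 subunits. Polr3f had been singled out for its low ratio between the libraries, so its ratio is given as a description and not as a test result.

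The data were single-cell RNA-Seq counts of YFP+7AAD- regulatory T cells (Tregs) sorted from spleens of 7-day-old C57BL/6J mice, with 1 WT library and 1 KO library. KO mice were Zfp335fl/flFoxp3-Cre, in which the sequence of the Cre recombinase fused to YFP is placed in the Foxp3 gene. Per the methods, WT mice carried the same Foxp3-Cre allele and unfloxed Zfp335, and the number of mice per library was not stated. Zfp335 is a zinc finger transcription factor. Because each genotype had 1 library, no test between genotypes was possible, and every interval below is a 95% interval that covers counting error only.

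Each transcript molecule was counted by its unique molecular identifier (UMI), and each droplet by its barcode. A barcode was kept if it had 300 or more genes and no more than 5% of its UMIs from mitochondrial genes, which left 8053 of 14524 WT and 13767 of 18134 KO barcodes with 54204367 and 57649800 UMIs. The depth differed, with a median of 5061 UMIs per kept WT barcode and 2713 per kept KO barcode. The libraries shared 29 kept barcode sequences. Levels are given as CPM, a gene's UMIs in every 1000000 UMIs of the barcodes named. The reads come from the ends of transcripts and were not scaled by gene length, so levels are compared between libraries or clusters and not between genes. Of the 16 clusters, 9 carried T cell receptor and CD3 genes (T-lineage, 7494 WT and 12951 KO barcodes). They include unnamed cluster 8 (8 WT and 694 KO barcodes), whose leading genes included Ltf, Camp, Ngp and Lcn2 of neutrophil granules. Its T cell genes averaged 880 CPM in KO, against 1184 in KO cluster 1 and 266 in KO neutrophil-like cluster 13, and its 9 neutrophil markers summed to 23922 CPM, against 227 and 266076. It held 0 WT and 4 KO UMIs of Polr3f, and its part in the T-lineage values is given beside them. The other 7 held 559 WT and 816 KO barcodes, most of them erythroid-like or myeloid-like. Foxp3, the defining gene of Tregs, stood at 40.6 CPM in WT and 44.5 CPM in KO T-lineage clusters, against 5.85 and 8.93 CPM in the other lineages. Zfp335 itself had 435 WT UMIs and 58 KO UMIs, a KO to WT ratio of 0.125 (0.0936 to 0.165).

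The enzyme is built from parts with separate tasks. Polr3a and Polr3b, the largest subunits, form the catalytic center, and Polr3k helps to cut and release the RNA at the end of transcription. Polr3c, Polr3f and either Polr3g or Polr3gl form a trimer that opens the promoter DNA, whereas Polr3d and Polr3e form a dimer that takes part in initiation and termination. Polr3g and Polr3gl are alternative forms of the same position; Polr3g is known from stem and dividing cells and Polr3gl from most differentiated tissues.

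The regulatory sequence before the gene is shown for the subunits on which the results turn. RefSeq promoter windows (GRCm38.p6, from 250 bases before to 50 bases after the start site) were matched for 7 of the 9 subunits, all except Polr3a and Polr3d. Polr3f (ENSMUSG00000027427) lies on chromosome 2, 144527718 to 144541995, plus strand, with 9 exons in its first annotated transcript. The following stretch is the intergenic part of its window, chr2:144527495-144527717, plus strand, which ends at the annotated first exon. No letters are in capitals because none of the 7 motifs searched occurred in it.
Polr3f: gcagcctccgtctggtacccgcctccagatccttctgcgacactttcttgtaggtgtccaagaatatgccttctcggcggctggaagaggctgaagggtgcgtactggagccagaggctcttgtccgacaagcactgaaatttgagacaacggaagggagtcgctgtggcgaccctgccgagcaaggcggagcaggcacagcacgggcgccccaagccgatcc

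Polr3g and Polr3gl are shown next because they can take each other's place in the enzyme. Their stretches are chr13:81711014-81711263 and chr3:96594182-96594431, both on the minus strand and both ending at the annotated start of the gene. In Polr3g the capitals mark a GC box (GGGCGG) and an Ets core (CCGGAAG), here read on the opposite strand. In Polr3gl they mark an E box (CACGTG) and a pair of CCAAT boxes (CCAAT), of which the first is on the opposite strand.
Polr3g: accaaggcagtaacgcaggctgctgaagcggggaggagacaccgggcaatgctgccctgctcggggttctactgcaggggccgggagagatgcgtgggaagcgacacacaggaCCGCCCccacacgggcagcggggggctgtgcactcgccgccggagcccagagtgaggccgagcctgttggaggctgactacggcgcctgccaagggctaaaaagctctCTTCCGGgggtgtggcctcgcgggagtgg
Polr3gl: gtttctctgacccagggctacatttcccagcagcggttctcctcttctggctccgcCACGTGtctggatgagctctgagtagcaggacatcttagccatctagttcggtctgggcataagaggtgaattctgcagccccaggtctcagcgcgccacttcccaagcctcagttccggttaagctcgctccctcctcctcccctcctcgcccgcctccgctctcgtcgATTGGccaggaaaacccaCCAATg

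Polr3e is shown because its window holds a promoter element of the enzyme itself. The core of the B box of transfer RNA genes (GTTCGANTC), which is bound by the polymerase III factor TFIIIC, occurred in 55 of 32851 promoter windows (0.167%), and among the 7 matched subunits only in that of Polr3e. RefSeq annotates a transfer RNA gene, n-TLaag4, at chr7:120917517-120917598, and the B box lies inside it. The 100 bases at chr7:120917528-120917627, plus strand, are printed with the B box in capitals.
Polr3e: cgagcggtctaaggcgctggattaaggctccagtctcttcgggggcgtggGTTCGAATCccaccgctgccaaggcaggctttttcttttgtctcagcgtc

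All motifs were searched on both strands of the whole 300-base windows, and a match is a description of the letters and not evidence of binding. The E box occurred in 7.15% of all windows and in those of Polr3c, Polr3e and Polr3gl. The Ets core occurred in 8.86% of windows and in those of Polr3b and Polr3g. The CCAAT box occurred in 37.4% of windows and in those of Polr3gl and Polr3k, and the GC box in 35.7% and in those of Polr3c, Polr3e and Polr3g. The TATA box (TATAAA, 13.6% of windows) and the Nrf1 motif GCGCATGC (2.71%) were in no subunit's window. The Polr3f window, of 62.7% G and C against a median of 52.7% over all windows, was the only one of the 7 without any of these motifs.

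Within the promoter-opening trimer, only Polr3f was far lower in the KO library. It had 805 UMIs in WT and 304 in KO, or 14.9 CPM (13.8 to 15.9) and 5.27 CPM (4.70 to 5.90). KO over WT gave a ratio of 0.355 (0.310 to 0.406), or -1.49 on the log2 scale, whereas the median ratio of all genes was 0.949. Its partner Polr3c had 1867 and 2018 UMIs, 34.4 and 35.0 CPM, and a ratio of 1.02 (0.954 to 1.08). Polr3g had 496 and 478 UMIs, 9.15 and 8.29 CPM, with a ratio of 0.906 (0.797 to 1.03). Polr3gl had 979 and 1196 UMIs, 18.1 and 20.7 CPM, with a ratio of 1.15 and an interval from 1.05 upward. The WT and KO intervals of Polr3f were thus far apart, and those of Polr3c and Polr3g overlapped. Those of Polr3gl were also apart, by little, at 16.9 to 19.2 CPM in WT and 19.6 to 22.0 CPM in KO.

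The catalytic and terminating subunits were close to level. Polr3a measured 12.3 CPM in WT (667 UMIs) and 10.8 CPM in KO (620 UMIs), a ratio of 0.874 (0.782 to 0.976). Polr3b measured 14.4 and 15.6 CPM (781 and 897 UMIs), a ratio of 1.08 (0.980 to 1.19). Polr3k measured 35.6 and 31.4 CPM (1929 and 1810 UMIs), a ratio of 0.882 (0.827 to 0.941). The intervals of Polr3a and Polr3k lay just below equality, and that of Polr3b included it.

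The dimer was at or slightly above the WT level in KO. Polr3d had 1154 WT and 1444 KO UMIs, 21.3 and 25.0 CPM, with a ratio of 1.18 (1.09 to 1.27), the highest of the 9 subunits. Polr3e had 622 and 710 UMIs, 11.5 and 12.3 CPM, with a ratio of 1.07 (0.962 to 1.20).

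**Figure D1:**
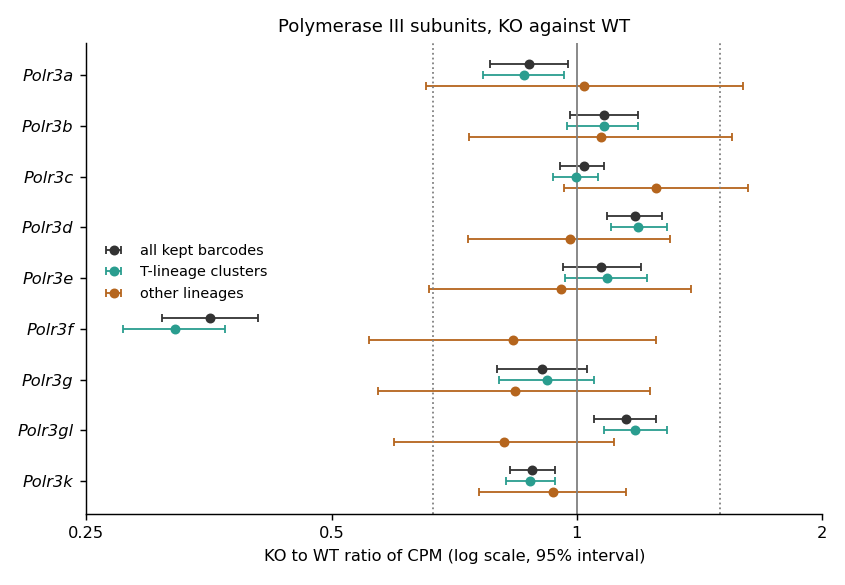
KO to WT ratio of CPM for each subunit (log axis, points with 95% counting intervals) over all kept barcodes, the T-lineage clusters and the other lineages; dotted lines mark 1.5-fold in either direction. Polr3f sits at 0.355 and 0.321 in the first 2 sets and at 0.835 in the other lineages, while the 8 other subunits lie between 0.874 and 1.18 over all kept barcodes.

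All 9 subunits reached 200 UMIs over both libraries, and 1 of them, Polr3f, was at least 1.5-fold lower in KO. Of the 10593 genes with 200 UMIs, 1007 (9.51%) were at least 1.5-fold lower, and 347 (3.28%) were at least 1.5-fold higher, a class that held none of the subunits. The share of 1 in 9 members was near the background, and the ratio had been used to choose Polr3f, so nothing is read from the count. In the order of ratios from the lowest, Polr3f was at place 146, between Hist1h2ab and Dph6, with ratios of 0.353 and 0.355.

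Summed, the other 8 subunits gave 157 CPM in WT and 159 CPM in KO, a ratio of 1.02 (0.986 to 1.05), which lay from 0.994 to 1.07 over the alternative settings. Polr3f therefore made up 8.66% (8.09 to 9.25, Clopper-Pearson) of the UMIs of the 9 subunits in WT, 805 of 9300. In KO it made up 3.21% (2.86 to 3.58), 304 of 9477. The difference was -5.45 percentage points (-6.13 to -4.78, Newcombe), and it does not depend on how the libraries were scaled. Relative to the other subunits, the KO to WT ratio of Polr3f was 0.350 (0.304 to 0.401).

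Few barcodes held a Polr3f UMI in either library. The share was 8.58% (691 of 8053) in WT and 2.02% (278 of 13767) in KO, and 104 WT and 22 KO barcodes held more than 1 UMI. After each barcode was thinned to 1000 UMIs, 106 of 6917 WT barcodes (1.53%, 1.26 to 1.85) and 72 of 12640 KO barcodes (0.570%, 0.446 to 0.717) kept one. This left out 1136 WT and 1127 KO barcodes. In the late erythroid-like cluster, a cell type that makes little RNA beyond haemoglobin and so gives a level for free RNA, the unthinned shares were 1.18% in WT (1 of 85, median depth 4462 UMIs) and 0.457% in KO (1 of 219, median depth 2367 UMIs). The thinned shares there were 0 of 82 and 0 of 198 barcodes. A floor of 3 counts allows shares of up to 3.66% and 1.52%, and the exact upper limits were 4.40% and 1.85%. These limits lie above the thinned Polr3f shares of 1.53% in WT and 0.570% in KO. After thinning, Polr3f detection can thus not be told apart from free RNA by this cluster. Unthinned and at unequal depth, the WT limits were 0.0298 to 6.38% in this cluster and 7.98 to 9.21% over all kept barcodes, which did not overlap. The unthinned KO limits, 0.0116 to 2.52% and 1.79 to 2.27%, overlapped. Among the other subunits, the thinned share in KO was 3.51% against 3.64% in WT for Polr3c and 2.87% against 2.66% for Polr3k. It was lower in KO for Polr3a, at 1.03% against 1.47%, and higher for Polr3g, at 0.957% against 0.651%, and for Polr3gl, at 1.99% against 1.58%.

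The ratio was lower in the T-lineage clusters, where Foxp3 is expressed, than in the other lineages. In the T-lineage clusters Polr3f measured 15.4 CPM (14.3 to 16.5) in WT and 4.93 CPM (4.34 to 5.56) in KO, a ratio of 0.321 (0.277 to 0.370). Here too 1 of 9 subunits was at least 1.5-fold lower, against 9.30% of 10250 genes, and 0 were at least 1.5-fold higher, against 4.18%. In the other lineages, with 59 WT and 46 KO UMIs, it measured 10.5 CPM (7.97 to 13.5) and 8.74 CPM (6.40 to 11.7), a ratio of 0.835 with an interval that reached from 0.555 to above 1. Without cluster 8 the T-lineage ratio was 0.321 (0.277 to 0.371), still with 1 subunit lower and 0 higher, and with that cluster counted among the other lineages their ratio was 0.779 (0.524 to 1.16). The T-lineage ratio divided by the ratio in the other lineages was 0.384 (0.255 to 0.579) for Polr3f and 1.03 (0.928 to 1.15) for the other 8 subunits summed. Zfp335 showed the same order, with ratios of 0.0981 (0.0696 to 0.135) in T-lineage clusters and 0.451 (0.235 to 0.828) elsewhere. Of the single subunits other than Polr3f, the quotient of Polr3gl alone had an interval apart from 1, at 1.45 (1.06 to 1.98).

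In each T-lineage cluster with at least 50 barcodes per library, Polr3f was lower in KO. In cluster 1, resting Treg-like by Ly6c1, Dapl1 and Satb1, 183 WT and 118 KO UMIs gave 18.1 and 5.84 CPM, a ratio of 0.322 (0.253 to 0.408). In cluster 3, activated Treg-like by Nefh and Tnfrsf9, 91 and 44 UMIs gave 13.1 and 4.05 CPM, a ratio of 0.310 (0.211 to 0.450). In cluster 5, S phase-like by its histone genes, 173 and 43 UMIs gave 16.0 and 3.99 CPM, a ratio of 0.249 (0.174 to 0.350). WT and KO intervals did not overlap in any of these 3 clusters, whereas the intervals of the 3 ratios overlapped with each other.

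The effector Treg-like clusters, 4 and 9, were held mostly by the WT library, with 1705 and 545 WT against 91 and 19 KO barcodes. In cluster 4, which is marked by Ccl5, S100a4, Klrg1 and Ccr2, Polr3f had 179 UMIs in WT (14.9 CPM) and 0 of 78 subunit UMIs in KO. The exact interval of its KO to WT ratio reached from 0 to 0.436. A floor of 3 counts, which is 5.24 CPM in this small KO group, would be 2.85-fold below the WT level. This fold leaves out counting error in WT. In cluster 9, marked by Cxcr3 and Gzmb, 83 WT and 4 KO UMIs gave 12.2 and 15.5 CPM, a ratio of 1.27 (0.337 to 3.37), so a difference was not detectable at this depth. Over both effector clusters 262 and 4 UMIs gave a ratio of 0.345 (0.0933 to 0.894), and all 4 KO UMIs came from cluster 9. Relative to the other 8 subunits the ratio there was 0.409 (0.109 to 1.09). The Polr3f share of the subunit UMIs differed by -4.62 points (-6.96 to 0.581). Both of these intervals included no difference.

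The remaining clusters of that size were unnamed clusters 2 and 7 among the T-lineage and 4 clusters of other lineages. Cluster 2, almost wholly KO (90 WT and 4890 KO barcodes), had 3 WT and 44 KO UMIs and a ratio of 0.271 (0.0867 to 1.36). Cluster 7 had 25 and 1 UMIs and a ratio of 0.0944 (0.00230 to 0.577). Among the other lineages, erythroid-like cluster 10 had 36 and 20 UMIs, 16.7 and 12.8 CPM, and a ratio of 0.762 (0.418 to 1.35), although Zfp335 there had 14 WT UMIs and 1 KO UMI, a ratio of 0.0980 (0.00232 to 0.644). Myeloid progenitor-like cluster 12 had 18 and 22 UMIs, 9.37 and 11.3 CPM, and a ratio of 1.20 (0.617 to 2.38). Late erythroid-like cluster 11 and neutrophil-like cluster 13 held 1 and 1, and 3 and 3 UMIs. The intervals of clusters 10 and 12 included equality and were wide.

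**Figure D2:**
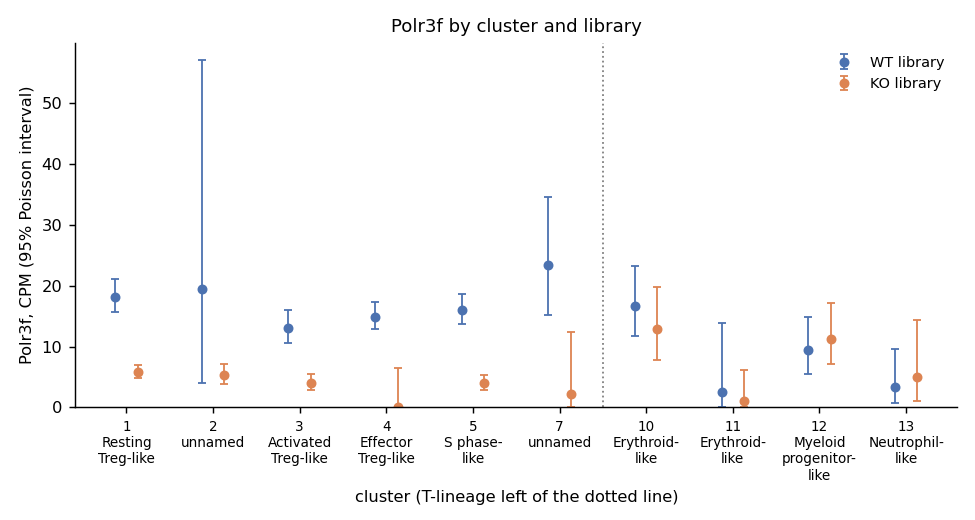
Polr3f in CPM (vertical axis, points with 95% Poisson intervals) in the WT and KO libraries for the 10 clusters with at least 50 barcodes in each library. The WT point lies above the KO point in every T-lineage cluster shown, for example at 18.1 against 5.84 CPM in cluster 1. The intervals overlap in T-lineage cluster 2, which holds 3 WT UMIs, and in the erythroid-like, myeloid progenitor-like and neutrophil-like clusters.

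The low Polr3f ratio was present at every depth. T-lineage barcodes were split at 1553, 3452 and 6286 UMIs. From the shallowest to the deepest group the KO to WT ratio was 0.355 (0.185 to 0.695), 0.387 (0.263 to 0.573), 0.264 (0.196 to 0.352) and 0.291 (0.233 to 0.361). The shallowest group held 18 WT and 24 KO UMIs of Polr3f. The corresponding Polr3f shares of the subunit UMIs were 7.63%, 10.5%, 10.6% and 8.13% in WT and 3.30%, 4.09%, 2.98% and 2.45% in KO. By these point values every group of KO barcodes was below every group of WT barcodes. The WT interval of the shallowest group (4.58 to 11.8%) overlapped the KO intervals of that group (2.12 to 4.87%) and the next (3.18 to 5.17%). Over the same groups the KO to WT ratio was 0.464, 0.641, 0.768 and 0.932 for Polr3a. For Polr3gl it was 1.11, 1.63, 1.16 and 1.03. Polr3f was thus not the only subunit with a ratio away from 1 in the shallower groups. The Polr3a intervals were 0.293 to 0.747 in the shallowest group (31 WT and 54 KO UMIs) and 0.451 to 0.923 in the next (47 and 107 UMIs). The Polr3gl ratio of 1.63 had an interval of 1.19 to 2.29. The share of all genes past 1.5-fold was not taken in these groups, so no subunit is called there.

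Clusters 1, 3 and 5 held at least 655 barcodes of each library, and there the other subunits differed less. In cluster 1 all 9 subunits reached 200 UMIs, and Polr3f alone was at least 1.5-fold lower, against 6.59% of the genes tested there. The next lowest was Polr3a, at 15.9 CPM in WT and 11.4 in KO, a ratio of 0.717 (0.584 to 0.882), and the highest was Polr3gl, at 20.6 and 25.2 CPM, a ratio of 1.23 (1.04 to 1.45). In cluster 3, 8 subunits reached 200 UMIs and none was past 1.5-fold lower, against 5.98% of genes; Polr3f, with 135 UMIs at the ratio given above, fell short of the count minimum. The lowest of the 8 was Polr3g, at 15.9 CPM in WT and 11.1 in KO, a ratio of 0.694 (0.532 to 0.907).

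In cluster 5 Polr3f was again the only one past 1.5-fold lower, against 6.07% of genes. Polr3b there measured 9.90 CPM in WT and 14.8 CPM in KO, a ratio of 1.5 (1.17 to 1.93) that fell just short of the threshold. The sum of the other 8 subunits had ratios of 0.991 (0.931 to 1.05), 0.977 (0.911 to 1.05) and 1.12 (1.05 to 1.20) in clusters 1, 3 and 5. No subunit was at least 1.5-fold higher in KO in these clusters, against 1.94%, 2.92% and 6.12% of the genes tested in each.

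Several subunits also differed between cell states, in both libraries. From resting Treg-like cluster 1 to activated Treg-like cluster 3, both dimer subunits were about 2-fold higher. Polr3d went from 19.3 to 38.7 CPM in WT and from 20.2 to 41.4 CPM in KO, ratios of 2.01 (1.66 to 2.42) and 2.05 (1.79 to 2.35). Polr3e went from 10.6 to 22.4 CPM in WT and from 10.00 to 19.5 CPM in KO, ratios of 2.11 (1.64 to 2.73) and 1.95 (1.60 to 2.38). Polr3k, the terminating subunit, had ratios of 1.62 (1.36 to 1.92) in WT and 1.65 (1.45 to 1.88) in KO. It was also higher in S phase-like cluster 5 than in cluster 1, at 1.60 (1.37 to 1.88) and 1.47 (1.29 to 1.69).

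The interchangeable subunits went opposite ways. Polr3g was higher in cluster 3 than in cluster 1, with ratios of 2.09 (1.55 to 2.83) in WT and 1.77 (1.37 to 2.29) in KO. Polr3gl was lower, with ratios of 0.606 (0.466 to 0.782) and 0.558 (0.463 to 0.670). Polr3f was also lower in cluster 3, with 0.720 (0.554 to 0.931) and 0.694 (0.479 to 0.989), whereas Polr3a, Polr3b and Polr3c lay between 0.792 and 1.14. The other 8 subunits summed had a ratio of 1.27 (1.18 to 1.37) in WT and a like one in KO (1.18 to 1.32). For every subunit except Polr3a the WT and KO values lay on the same side of 1.

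Such contrasts were common among all genes. Of the 8 subunits with 200 UMIs over the clusters compared in WT, 3 were at least 1.5-fold higher in cluster 3 (19.4% of all genes) and 1 was as much lower (20.5%). In KO, 4 of 8 were higher (16.6%) and 1 was lower (17.9%). Among the other polymerase III genes, 11 of 22 in WT and 5 of 26 in KO were at least 1.5-fold higher. Of the subunits found only in polymerase I, 3 of 5 and 4 of 6 were higher, and of those found only in polymerase II, 1 of 8 and 0 of 8. Clusters were built without any of these genes, and cluster 3 barcodes were deeper, with medians of 9356 UMIs in WT and 7480 in KO against 4215 and 3851 in cluster 1. After thinning to 1000 UMIs, an alternative chosen after seeing the data, Polr3d, Polr3e, Polr3g and Polr3k stayed above 1, from 1.59 to 4.17, and Polr3gl and Polr3f below 1, from 0.433 to 0.644, in both libraries, on 5 to 108 UMIs each. Of these, the intervals of Polr3e, Polr3k and Polr3gl in WT and of Polr3f in both libraries included 1. Polr3a, Polr3b and Polr3c lay from 1.04 to 1.23 in WT and from 0.736 to 0.917 in KO, on opposite sides of 1, with intervals that included it.

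**Figure D3:**
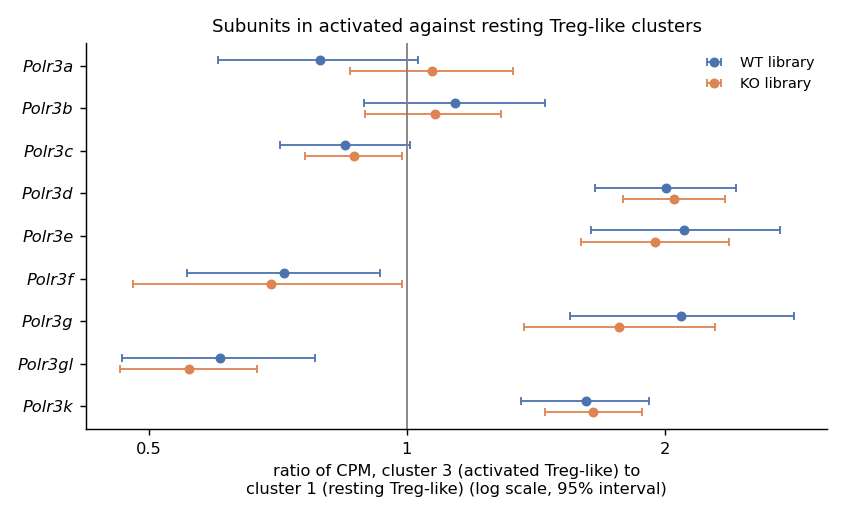
Ratio of CPM in activated Treg-like cluster 3 to that in resting Treg-like cluster 1 for each subunit (log axis, points with 95% counting intervals), for the WT and KO libraries separately. Polr3d, Polr3e, Polr3g and Polr3k lie between 1.62 and 2.11 in both libraries, and Polr3gl lies at 0.606 and 0.558.

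The Polr3g share of the UMIs of Polr3g and Polr3gl put these opposite changes in a single number. In cluster 1 it was 27.0% in WT (77 of 285) and 19.8% in KO (126 of 636). In cluster 3 it was 56.1% in WT (111 of 198) and 44.0% in KO (120 of 273). The difference between the clusters was 29.0 percentage points (20.2 to 37.3) in WT and 24.1 (17.5 to 30.8) in KO, and it was 46.4 and 36.7 points after thinning. S phase-like cluster 5 lay between them, with 35.7% and 26.1%, or 8.64 points (0.841 to 16.4) and 6.32 points (0.690 to 12.2) above cluster 1. Effector Treg-like cluster 4 was near cluster 1 in WT, with 23.1% (73 of 316), and its 18 KO UMIs allowed no comparison.

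Between genotypes the share was 33.6% in WT (496 of 1475) and 28.6% in KO (478 of 1674), a difference of -5.07 points (-8.31 to -1.83) that turned to 3.41 points when barcodes were thinned to equal depth, so no direction is read from it. Within clusters 1, 3 and 5 the unthinned differences were -7.21, -12.1 and -9.53 points, with upper limits from -2.96 to -1.38. In the other lineages the share was 39.4% and 40.2%, a difference of 0.764 points (-10.4 to 12.0).

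**Figure D4:**
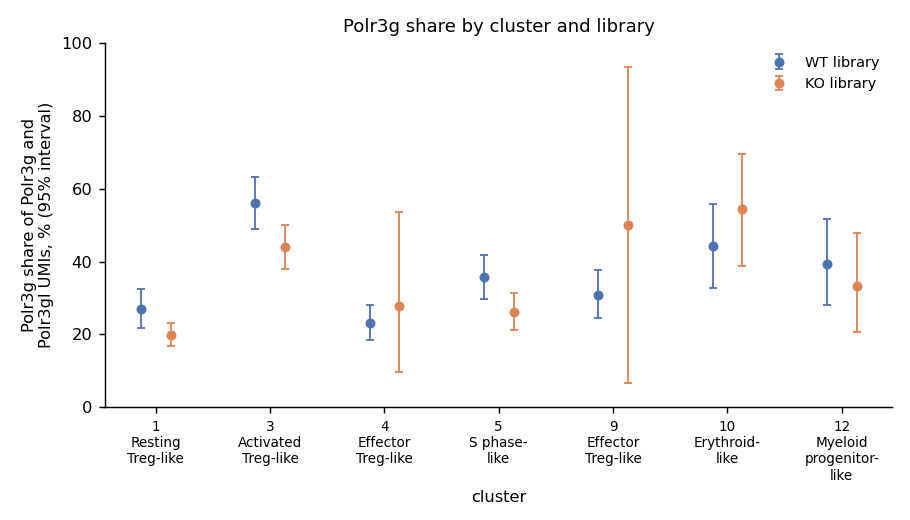
Share of Polr3g among the UMIs of Polr3g and Polr3gl (vertical axis in percent, points with 95% Clopper-Pearson intervals) by cluster and library. Cluster 3 stands above cluster 1 in both libraries, at 56.1% against 27.0% in WT and 44.0% against 19.8% in KO, while the KO points of clusters 4 and 9 rest on 18 and 4 UMIs.

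The rest of the polymerase III machinery was described by a list of 27 genes: 9 remaining or shared subunits and 18 initiation factors, repressor and RNA-binding proteins. All 27 reached 200 UMIs. Over all kept barcodes 1 was at least 1.5-fold lower in KO and 0 were at least 1.5-fold higher, against 9.51% and 3.28% of all genes, and the median ratio was 0.970. That gene was Gtf3c4, a subunit of TFIIIC, the factor that recognizes the inner promoter of transfer RNA genes. Gtf3c4 had 388 WT and 223 KO UMIs, 7.16 and 3.87 CPM, with a ratio of 0.540 (0.456 to 0.639). The other TFIIIC subunits of the list, Gtf3c1, Gtf3c2, Gtf3c3, Gtf3c5 and Gtf3c6, had ratios of 0.907, 1.16, 0.991, 0.995 and 1.04.

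Like Polr3f, Gtf3c4 was lower in KO in the resting, activated and S phase-like clusters. Its ratio was 0.327 (0.229 to 0.465) in cluster 1, 0.542 (0.370 to 0.790) in cluster 3 and 0.616 (0.392 to 0.954) in cluster 5. In the other lineages the Gtf3c4 ratio was 0.837 (0.548 to 1.27), with 55 and 43 UMIs. Among these it was 0.568 (0.264 to 1.15) in erythroid-like cluster 10 and 1.20 (0.617 to 2.38) in myeloid progenitor-like cluster 12. In neutrophil-like cluster 13 it was 1.81 (0.459 to 7.48). Snapc3, a subunit of the factor for small nuclear RNA promoters, was the next lowest of the list, at 16.1 CPM in WT and 11.6 CPM in KO, a ratio of 0.723 (0.653 to 0.800). Brf2, a TFIIB-related initiation factor, was the highest, at 8.47 and 10.4 CPM, a ratio of 1.23 (1.09 to 1.39). Maf1, the repressor of polymerase III, measured 64.4 CPM in WT and 78.4 CPM in KO, a ratio of 1.22 (1.16 to 1.27).

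Among the subunits outside the member list that complete the enzyme, the lowest ratio was 0.812, for Polr1d, which polymerases I and III share. Within clusters Polr1d differed, at 1.05 (1.00 to 1.10) in cluster 1, 0.755 (0.718 to 0.794) in cluster 3 and 0.772 (0.735 to 0.811) in cluster 5. Over all kept barcodes the 6 subunits particular to polymerase I ranged from 0.797 to 1.09, with a median of 1.08. The 8 particular to polymerase II ranged from 0.818 to 1.10, with a median of 0.991. None of these 14 genes was past 1.5-fold in either direction. Across the 50 genes of the 5 lists, Polr3f had the lowest ratio and Gtf3c4 the next.

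**Figure D5:**
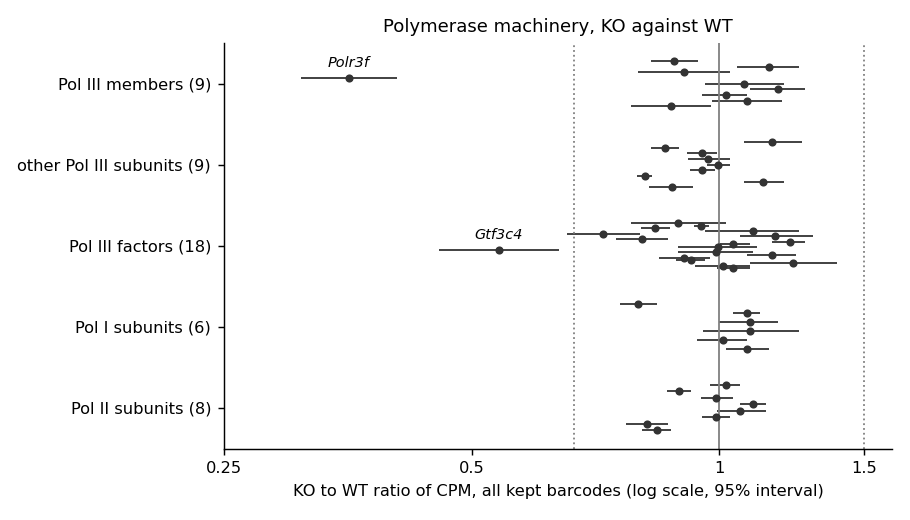
KO to WT ratio of CPM over all kept barcodes (log axis, points with 95% counting intervals) for the subunits of polymerase III, its factors, and the subunits particular to polymerases I and II; dotted lines mark 1.5-fold. Polr3f at 0.355 and Gtf3c4 at 0.540 are the points beyond the lower line, and no point is beyond the upper one.

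The genes around Polr3f on the chromosome were compared in the same way. Dzank1, which starts 303 bases away on the opposite strand, had 2 WT and 4 KO UMIs, too few for a comparison. Rbbp9, which ends 269 bases beyond Polr3f on the opposite strand, had 117 and 76 UMIs, a ratio of 0.611 (0.451 to 0.822), below the count minimum. The nearest 3 genes with 200 UMIs before Polr3f, Kat14, Mgme1 and Snx5, had ratios of 0.976, 0.803 and 1.00. The nearest 3 after it, Sec23b, Smim26 and Dtd1, had ratios of 1.06, 1.13 and 0.632 (0.594 to 0.672). Dtd1, which codes for an enzyme that clears D-amino acids from transfer RNA, lies 57901 bases from Polr3f, with 2541 WT and 1707 KO UMIs. Zfp335 is on the same chromosome, 20349886 bases away (164891882 to 164911757, minus strand).

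The genes whose pattern was most like that of Polr3f were sought over 20 sums, 10 clusters in each of the libraries, by the Pearson correlation of log2(CPM + 1). They were Ccnc (0.909), Nphs1 (0.891), Pin4 (0.890), Cs (0.886) and 2610301B20Rik (0.858). Their KO to WT ratios were 0.607, 0.472, 0.480, 0.619 and 0.546. Because the sums span both libraries, the choice itself favours genes that are lower in KO, as Polr3f is. Nothing is therefore read from these 5 ratios. The other subunits had correlations with Polr3f from 0.208 (Polr3b) to 0.549 (Polr3e). Sums from the same library share its depth and cell handling, and these correlations are given as a description only.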

How the data were processed

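Per the labels and methods, the authors ran Cell Ranger 5.0.1 on the mm10 reference, and the deposited values are the resulting raw UMI counts of 10X libraries. Barcodes below the authors' cut-offs were present in the files. Those with 300 or more genes and no more than 5% mitochondrial UMIs were used, and no doublets were removed; removing the 5% of WT and 8% of KO barcodes with the highest Scrublet scores (scanpy 1.11.5) was an alternative. UMIs were summed per library and cluster and scaled to CPM. Ratios carry exact conditional binomial intervals, CPM exact Poisson intervals, shares exact binomial (Clopper-Pearson) intervals, and differences between shares intervals by Newcombe's method (scipy 1.17.1). UMI sums differ in size, so a gene or cluster with more UMIs has the narrower interval. The interval was checked on simulated counts.

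Barcodes of both libraries were clustered without integration (2000 variable genes clipped at 10, 30 principal components with scikit-learn 1.9.0, 20 neighbours, Leiden at resolution 0.5 with igraph 0.11.9). The members, the other listed polymerase genes, the markers, Zfp335, and haemoglobin, sex-linked, mitochondrial, rRNA-like and granule genes were left out. T-lineage clusters had at least 50% of the highest cluster's mean CPM of T cell receptor and CD3 genes. A cluster was named if at least 3 markers of a list were raised 1.5-fold and 2 were among its 10 leading genes, which left 4 of 16 unnamed. Without integration, a cluster held mostly by 1 library may be that library and not a cell type. This naming rule was set after the values were seen.

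Gene positions are from GENCODE M21 (GRCm38) and promoters from RefSeq. The named genes were the 9 subunits, Zfp335, listed polymerase III genes past 1.5-fold and the list's highest and lowest, the nearest 3 genes on each side of Polr3f with 200 UMIs, the 5 genes most like Polr3f in pattern, and its neighbours in the order of ratios. The other TFIIIC subunits, Snapc3, Maf1, Polr1d, Dzank1 and Rbbp9 were named after their values were seen. A further gene of the polymerase III list is counted in the list's totals and is not reported here by name. The members and lists were chosen with earlier results of these data known.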

Additional observations from a re-analysis of the deposited data

Results flagged for a closer look

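The barcodes that the filters removed, which no comparison above used, held Polr3f at 18.6 CPM in WT (193 UMIs) and 6.90 CPM in KO (54 UMIs). Their KO to WT ratio was 0.370 (0.269 to 0.503).

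Among the clusters of other lineages, Polr3f was higher in KO than in WT in myeloid progenitor-like cluster 12, with a ratio of 1.20 from 18 and 22 UMIs, and in neutrophil-like cluster 13, with a ratio of 1.5 (0.202 to 11.2) from 3 and 3 UMIs. Summed, the T-lineage clusters had a ratio of 0.321, although cluster 9 among them was at 1.27 from 83 and 4 UMIs. The intervals of all 3 clusters include equality, and with 1 library per genotype the difference between lineages was not tested.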

How the results depend on the processing

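The KO to WT ratio of Polr3f lay between 0.346 and 0.376 over 10 alternatives, and in T-lineage clusters between 0.315 and 0.353 over 12. Relative to the other 8 subunits it lay between 0.316 and 0.378 over 9. Under all 14 alternatives run, 1 subunit was past the lower fold threshold and 0 past the upper one. Thinning every barcode to 1000 UMIs moved the Polr3f share difference to -6.13 points, the ratio of the other 8 subunits to 1.05 and the Polr3g share difference to 3.41 points, the opposite sign; the cause was not tested. With the same thinning, the Polr3g share of cluster 3 exceeded that of cluster 1 by 46.4 points in WT and 36.7 in KO, against 29.0 and 24.1. Median-of-ratios scaling, which raises every KO level by 0.0757 on the log2 scale, moved the ratio of the other 8 subunits to 1.07. Of the other polymerase III genes, 2 were lower in KO past a planned threshold set below 1.5-fold, and 0 were lower past 2-fold. These counts move with the threshold by construction. The share of all genes is given at 1.5-fold only, so nothing is read from the counts at the other thresholds. Leaving out shared barcodes, unnamed clusters, cluster 8 or other lineages, and thinning within clusters, was chosen after seeing the data. Replicates could not be left out with 1 library per genotype. No paired analysis was possible because the genotypes share fewer than 2 replicate numbers.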
